A study of Rattus norvegicus with 4 samples.

Results

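The comparison was between rat kidneys perfused with heparin in the perfusates and kidneys perfused without it, and it rests on 2 of the 4 arrays of the study. Its question was what the glycosaminoglycan heparin, tested for anti-inflammatory properties, does to messenger RNA levels in a simulated reperfusion. All groups were left kidneys of male Wistar rats of 300 to 480 g, whose age the labels do not give. After exsanguination, 29 min of warm ischaemia in situ imitated a donor after cardiac death. Every kidney was next flushed and kept on a cold perfusion machine for 3 h with University of Wisconsin preservation solution, and the cold group stopped there. The warm group then had 30 min of warm perfusion with modified Krebs-Henseleit buffer, an oxygenated salt solution used to simulate reperfusion. The heparin group was treated in the same way with low molecular weight heparin at 10 IU/ml in both the cold and the warm perfusate. The PPS group had PPS, which the labels do not spell out, at the same concentration in both. Each array was hybridised with 1 equimolar pool of RNA from 3 kidneys, those with the best RNA of their group, and the submitters planned to verify differences in single kidneys by quantitative PCR.

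For each gene, the log2 expression value on the warm array was subtracted from that on the heparin array. Where a gene had several probe sets, the one whose mean over the 4 arrays was highest stood for it, and values below the median of all values (4.51, called the floor) were raised to it. The array measures 14217 named genes, and the 9393 that lay above the floor on at least 1 of the 4 arrays were analysed. There is 1 array a group, so there is no spread between replicates and no test, and differences between the pooled kidneys and an effect of heparin cannot be told apart. Genes are counted as higher or lower at a difference of 1 or more on the log2 scale, which is 2-fold. A fold with 1 side at the floor is a lower bound and is written "at least". Levels are log2 values given in the order cold, warm, heparin, PPS. A level of 4.51 is the floor. Levels are not comparable between genes.

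Heparin is a highly sulfated chain of the same family as the heparan sulfate that coats endothelium and basement membranes. It speeds up antithrombin, the plasma inhibitor of thrombin and factor Xa, and it binds chemokines, many growth factors and lipoprotein lipase, which are held on heparan sulfate in tissue. When a cooled organ is rewarmed and oxygenated, cells switch on immediate early genes, which need no new protein synthesis. These are followed by their feedback inhibitors and by chemokines and adhesion molecules, the signals that draw leukocytes into the tissue, largely through NF-kappaB and interferon regulatory factors.

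Most genes had nearly the same value with and without heparin, and the large differences were mostly lower values with heparin. On the heparin array 36 of the 9393 genes were at least 2-fold higher (0.383%) and 139 at least 2-fold lower (1.48%), together 1.86%. By 4-fold or more, 5 were higher and 20 lower. The median difference over all genes was 0.0 with an SD of 0.33 across genes, and 94.4% of genes were within 1.5-fold. Of the differences, 49.9% were positive and 46.3% negative. The gene lists below were chosen with earlier results of these data known. Their counts, set beside the shares over all analysed genes, are therefore descriptions. Large differences were fewer among genes with a high mean level: 25 higher and 64 lower genes were among the 2349 with the lowest means, against 1 and 14 among the 2348 with the highest. Closest to the limit among the genes counted as past it were Adamts9 (1.000), Ccl2 (-1.002) and Ucp2 (-1.004), and among those counted as within it Fabp5 (-0.998), Egr1 (-0.998) and Ripk2 (-0.997).

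**Figure D1:**
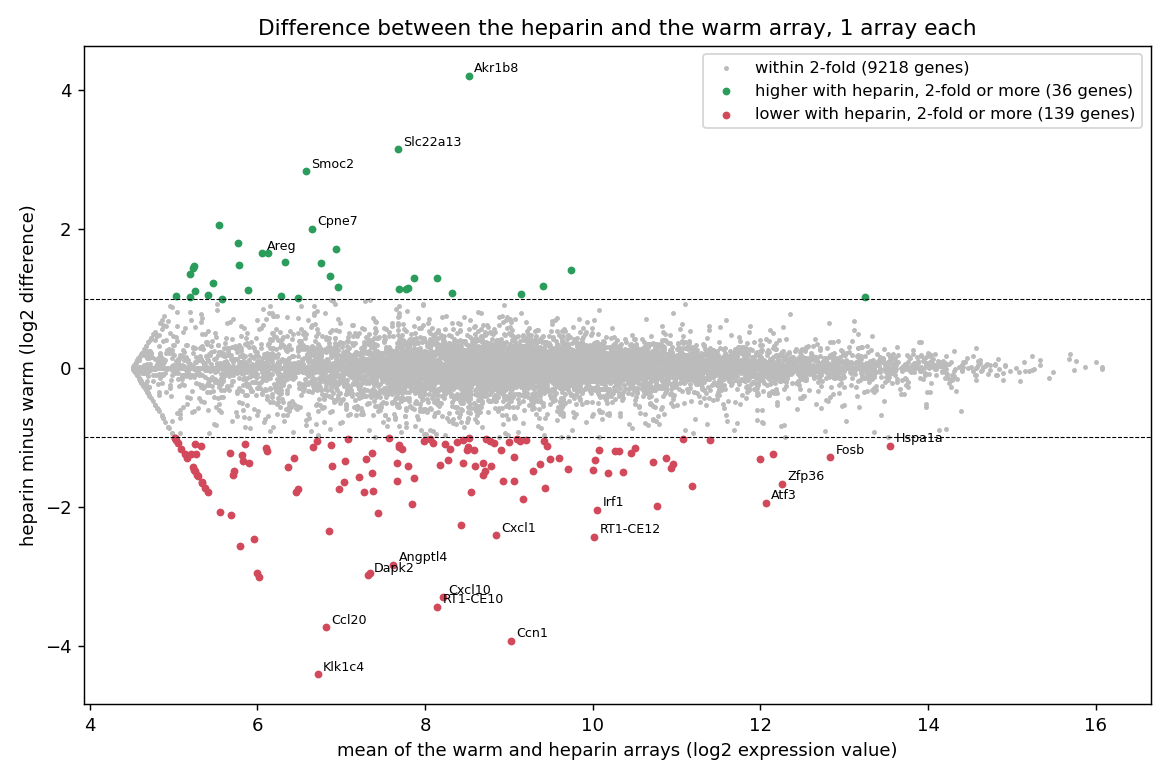
Difference between the heparin and the warm array (log2, vertical axis) of each of 9393 genes against its mean level on these 2 arrays (log2, horizontal axis), 1 point a gene, with dashed lines at 2-fold. Most points lie close to 0, and 139 lie below the lower line against 36 above the upper one.

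As to the arrays themselves, the 18 probe sets for hybridisation controls, transcripts added after labelling, were all lower on the heparin array, by a median of 0.28. The 24 probe sets for poly-A controls, transcripts added to the RNA before labelling, differed by a median of 0.08. Scaled to the hybridisation controls, the median of all genes moved to 0.28, and 87 genes past the limit were higher and 84 lower, which makes 50.9% of them higher in place of 20.6%. Differences below are therefore relative to the bulk of genes, as deposited, and a list is given with its second median where that scaling turns its sign or brings a median of 0.25 or more in size below 0.25. As a measure of RNA integrity, 3' minus 5' values of beta-actin were 3.22 (warm) and 3.39 (heparin), and those of GAPDH 0.84 and 0.72. Kidney markers were present on both arrays: Umod of the thick ascending limb had levels of 15.39, 15.52, 15.37 and 15.41, the proximal tubule receptor Lrp2 14.63, 14.39, 14.49 and 14.62, the collecting duct water channel Aqp2 13.52, 13.59, 13.52 and 13.12, and the podocyte protein Nphs1 8.94, 10.00, 9.30 and 9.84.

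Chemokines, the secreted signals that bind heparan sulfate and attract leukocytes, included several of the largest differences toward lower values. Of 30 chemokine genes on the array, 16 were above the floor and 14 were not. Of the 16, 8 were lower and 0 higher by 2-fold or more, beside 1.48% lower and 0.383% higher among all analysed genes. The list's median was -0.92. Ccl20, which attracts dendritic cells and some lymphocytes, had levels of 4.51, 8.69, 4.95 and 4.51 on the cold, warm, heparin and PPS arrays. Only the warm array stood clearly above the floor, and the heparin value was 13.4-fold lower, though it lay close to the floor, where the size of a fold is uncertain. Cxcl10, an interferon-inducible attractant of T cells, had levels of 4.97, 9.86, 6.56 and 5.93, a 9.88-fold lower value with heparin. The neutrophil attractants followed, Cxcl1 with 4.51, 10.05, 7.64 and 7.01 (5.33-fold lower) and Cxcl2 with 4.51, 9.30, 7.89 and 5.67 (2.65-fold lower). For Cxcl1 and Cxcl2 the heparin array kept a level well above the cold array, where both were at the floor, and the PPS array was lower still. Of the attractants of macrophages, Ccl4 had levels of 4.51, 8.88, 7.47 and 6.75, Ccl3 4.51, 8.24, 7.13 and 5.89 and Ccl2 8.48, 9.03, 8.03 and 7.88, with differences of -1.40, -1.12 and -1.002. Cxcl13, a B cell attractant, was different in its order: at 9.31, 8.94, 7.61 and 7.50, it was highest on the cold array and lower on both supplemented arrays than on the warm one. The constitutive chemokines Cxcl12 (12.25, 11.69, 11.97 and 12.16) and Cx3cl1 (10.17, 9.84, 9.63 and 10.30) were within the limit, as was Ccl27, the chemokine with the largest positive difference (0.46).

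The sequences upstream of 3 chemokine genes with a lower value and of 1 immediate early gene are shown because NF-kappaB and serum response motifs are the textbook elements of these promoters. Each is the 250 bases before the RefSeq start in the rat assembly GRCr8, 5′ to 3′ on the gene's strand, in lower case. Capitals mark matches to the NF-kappaB motif (GGG, 5 bases of any kind and CC), the interferon response motif (GAAA, 2 bases of any kind and GAAA) or the serum response element (the CArG box). All were searched on both strands, and overlapping matches merge into 1 run. Cxcl10 is from chr14:15988816-15989065 (plus strand), Cxcl1 from chr14:17479322-17479571 (minus strand), Ccl20 from chr9:91836909-91837158 (plus strand) and Egr2 from chr20:21054442-21054691 (minus strand).
Cxcl10: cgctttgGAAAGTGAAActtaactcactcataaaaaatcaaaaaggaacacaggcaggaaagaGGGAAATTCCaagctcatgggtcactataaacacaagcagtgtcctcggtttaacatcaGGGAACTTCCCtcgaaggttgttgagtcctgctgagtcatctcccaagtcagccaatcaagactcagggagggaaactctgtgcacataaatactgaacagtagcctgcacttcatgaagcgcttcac
Cxcl1: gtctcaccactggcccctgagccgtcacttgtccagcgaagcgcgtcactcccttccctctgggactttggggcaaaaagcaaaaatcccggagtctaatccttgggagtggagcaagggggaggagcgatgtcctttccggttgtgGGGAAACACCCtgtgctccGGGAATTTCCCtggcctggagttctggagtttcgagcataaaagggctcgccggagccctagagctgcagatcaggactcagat
Ccl20: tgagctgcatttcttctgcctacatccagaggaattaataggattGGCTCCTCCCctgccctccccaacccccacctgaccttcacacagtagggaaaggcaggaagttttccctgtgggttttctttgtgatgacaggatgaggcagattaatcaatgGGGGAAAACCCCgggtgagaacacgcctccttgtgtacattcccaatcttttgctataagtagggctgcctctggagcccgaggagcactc
Egr2: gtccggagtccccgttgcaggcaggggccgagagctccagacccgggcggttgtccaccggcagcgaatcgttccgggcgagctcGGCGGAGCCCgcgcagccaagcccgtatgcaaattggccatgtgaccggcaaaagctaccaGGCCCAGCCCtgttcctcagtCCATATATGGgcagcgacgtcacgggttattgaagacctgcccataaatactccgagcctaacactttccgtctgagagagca
The Cxcl10 window holds the interferon motif near its 5′ end and the NF-kappaB motif further on, while Cxcl1 and Ccl20 hold the latter alone and Egr2 holds a CArG box beside it.

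A match to so short a motif is common, and the shares over whole groups put these sequences in scale. Over windows of 300 bases (the 250 bases and the first 50 of the gene), the NF-kappaB motif was in 48.5% of 27457 RefSeq promoters and in 66.8% of the 7874 analysed genes with a window. It was in 73.1% of 108 genes lower with heparin, 53.3% of 30 higher ones and 69.2% of 13 chemokines. The interferon motif was in 3.0% of analysed genes, 3.7% of lower and 3.3% of higher ones, against 21 of 35 genes of the interferon list below. The AP-1 motif TGANTCA was in 4.6% of analysed genes, 11.1% of lower genes and 0.0% of higher ones. The CArG box was in 1.4% of analysed genes, 3.7% of lower genes and 26.7% of 15 early transcription factor genes.

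The other parts of leukocyte recruitment differed less. None of 9 cytokine genes above the floor passed the limit, with a median of -0.09 (0.19 scaled to the hybridisation controls), and Il6 was below the floor on all arrays. Il1b, the inflammasome-processed interleukin, had levels of 6.32, 8.71, 7.75 and 7.14 (-0.96). Tnf, at 4.51, 5.46, 4.51 and 4.51, was above the floor on the warm array alone, at least 1.92-fold above the heparin array. Of 19 cytokine and chemokine receptors, 2 were lower and 0 higher, with a median of -0.19 (0.09 with that scaling). Cxcr4, the receptor of Cxcl12, had levels of 4.51, 8.16, 6.38 and 6.57 (-1.78), and 2 further probe sets for it differed by -2.14 and -1.48. The second lower receptor, Tnfrsf12a, binds the cytokine TWEAK and had 6.90, 8.78, 7.69 and 7.52 (-1.09). Both were highest on the warm array, and heparin and PPS lay close together. Among 12 adhesion molecules 1 passed the limit, Icam1, the endothelial ligand of leukocyte integrins, with 8.77, 10.74, 9.27 and 9.28 (2.76-fold lower). Icam1 was highest on the warm array, whereas Vcam1, the ligand of the integrin VLA-4, had 8.94, 8.82, 8.20 and 8.40 and stayed within the limit. Of 39 leukocyte markers on the array 20 were above the floor, and none passed the limit, with 15 negative differences and a median of -0.27 that became 0.013 scaled to the hybridisation controls. Their summed level was 14.51 (cold), 14.44 (warm), 14.24 (heparin) and 14.33 (PPS). Adgre1, the macrophage protein F4/80, differed most (8.42, 8.56, 7.64 and 8.07), and the neutrophil genes S100a8 and S100a9 were below the floor on all 4 arrays. The part of leukocytes in the chemokine values was not tested, and in bulk tissue fewer cells of a type and less RNA per cell cannot be told apart.

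Immediate early transcription factors were lower on the heparin than on the warm array nearly throughout, though Fos, Jun and Egr1 stayed within the limit. Of 22 Egr, Nr4a, Klf and other early transcription factors, 12 were lower and 0 higher by 2-fold or more, with 20 negative differences and a median of -1.14. Of 9 AP-1 subunits and relatives, 4 were lower and 0 higher, all 9 differences were negative and the median was -0.89. Over all analysed genes, 1.48% were lower by 2-fold or more and 46.3% of differences were negative. Within AP-1, Fosb had levels of 4.51, 13.47, 12.18 and 11.27 (-1.29) and Junb 7.54, 11.65, 10.26 and 9.67 (-1.38). Fos, at 6.93, 14.70, 14.08 and 13.44 (-0.62), and Jun, at 11.14, 14.57, 13.69 and 12.96 (-0.89), lay within the limit, though another probe set for Jun differed by -1.31. The heparin array stayed far above the cold array for all of them. Atf3, a repressor of inflammatory genes in the same family, had 4.51, 13.04, 11.09 and 10.08 (-1.95), and Maff, a small Maf protein, 4.51, 6.07, 4.51 and 4.51 (at least 2.93-fold lower). The nuclear receptor Nr4a3 was seen on the warm array only, at 4.51, 7.52, 4.51 and 4.51, a value at least 8.05-fold higher than with heparin. Its relatives Nr4a1 (6.67, 12.04, 10.33 and 9.45) and Nr4a2 (4.92, 10.03, 8.54 and 7.91) were 3.26-fold and 2.80-fold lower with heparin and kept levels well above the floor. Egr2, a zinc finger factor whose promoter is shown above, had levels of 4.51, 9.55, 7.29 and 4.51, 4.80-fold lower with heparin, while its relative Egr1 with 8.87, 14.02, 13.02 and 12.33 was at the limit. Others past the limit were Ier2 (-1.49), Ier3 (-1.31), Myc (-1.41), Klf5 (-1.30), Klf6 (-1.23), Klf4 (-1.04), Csrnp1 (-1.37) and Cebpd (-1.58). Klf15, the member with the largest positive difference, differed by 0.20.

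**Figure D2:**
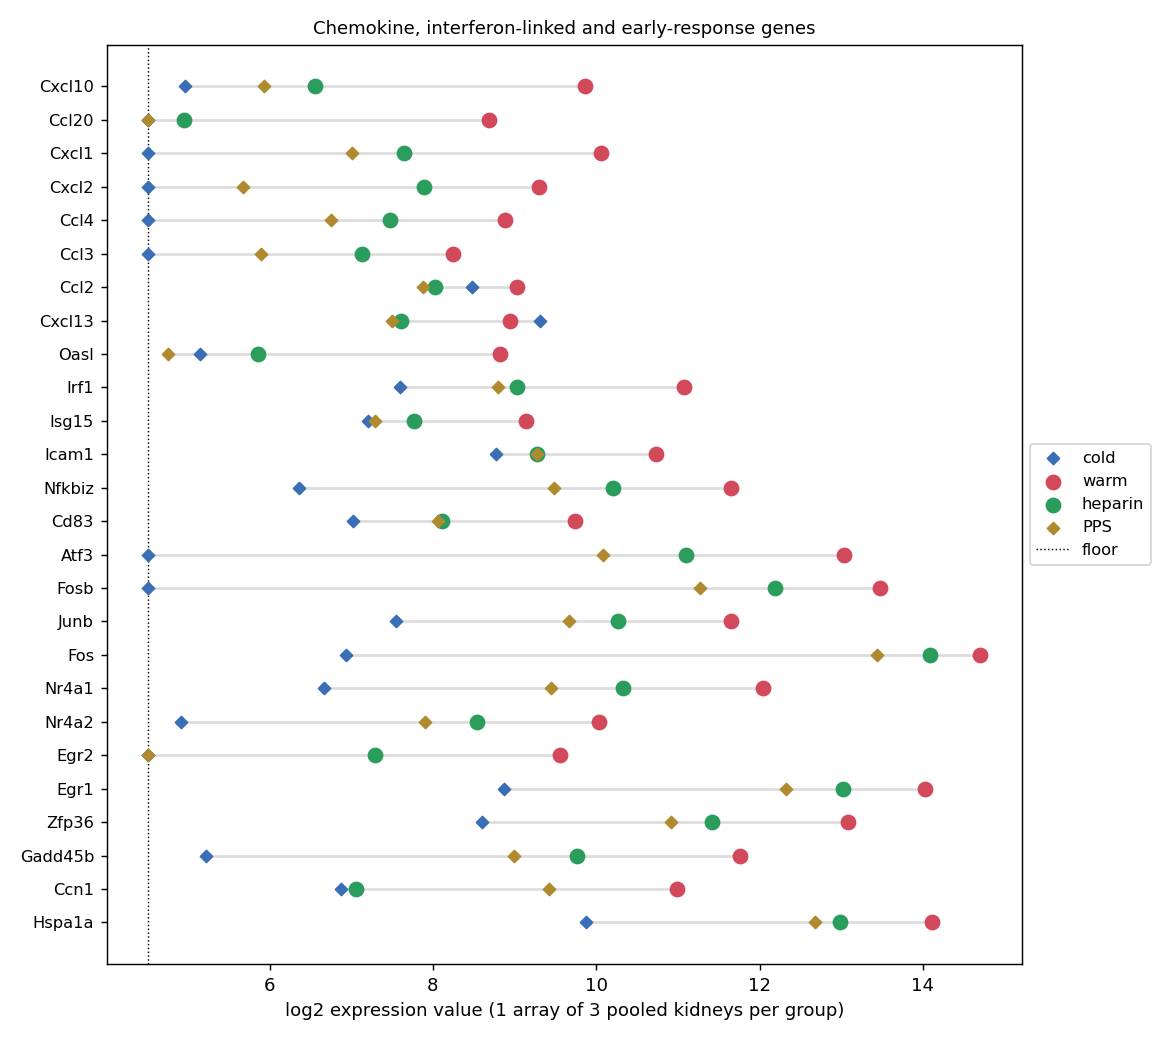
Log2 levels of early-response, chemokine and interferon genes on the cold, warm, heparin and PPS arrays (1 pool of 3 kidneys each), 1 row a gene, with the floor as a dotted line. The heparin point of Cxcl10 (6.56) lies between the cold (4.97) and the warm point (9.86), as do the heparin points of Cxcl1 and Egr2, whose cold points are at the floor, where points of several arrays coincide.

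Feedback inhibitors of the same pathways were lower too, each list with negative differences only. Over all analysed genes, 46.3% of differences were negative and 1.48% of genes were lower by 2-fold or more. Of 9 MAP kinase feedback genes, 1 was lower by 2-fold or more, and the list's median was -0.77. This was Dusp2, a nuclear MAP kinase phosphatase, with levels of 5.82, 8.34, 6.98 and 6.79. The more widely expressed phosphatase Dusp1 had 8.61, 13.40, 12.63 and 11.88, within the limit at -0.77, and another probe set for it differed by -1.61. Of 14 mRNA decay, Socs and G-protein feedback genes, 5 were lower and 0 higher, with a median of -0.60. Zfp36, tristetraprolin, which destabilises Tnf and chemokine transcripts, had 8.60, 13.09, 11.42 and 10.91 (3.18-fold lower), and Zc3h12a, the ribonuclease regnase-1, 5.26, 8.50, 7.09 and 6.62 (-1.41). Socs3, an inhibitor of cytokine receptor signalling, had 4.51, 6.59, 4.51 and 4.51 and was at least 4.21-fold lower with heparin. Cish, of the same family, had another order, at 9.17, 8.49, 6.85 and 7.14: it was higher on the cold than on the warm array and lower on both supplemented arrays (-1.63 for heparin). The fifth was Rasd1, a Ras-related GTPase, which differed by -1.03.

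In the NF-kappaB and interferon lists, 4 of 23 and 4 of 45 genes passed the limit, all lower, against 1.48% of all analysed genes. Most differences in both lists were negative, 19 of 23 and 36 of 45, against 46.3% of all analysed genes. The lists were chosen with earlier results of these data known, so these contrasts are descriptions and not tests. Birc3 and Ifit3, counted here and given below, were above the floor on the warm array alone and could only come out lower. Of 23 NF-kappaB subunits, inhibitors and targets, 4 were lower and 0 higher by 2-fold or more, and the list's median of -0.28 became 0.00169 scaled to the hybridisation controls. The 4 were Map3k8, a kinase that links NF-kappaB to the MAP kinases (4.51, 7.36, 5.61 and 5.15), Nfkbiz, a nuclear regulator of the pathway (6.36, 11.65, 10.20 and 9.48), Cd83, a surface protein of activated immune cells (7.02, 9.74, 8.11 and 8.06), and Birc3, an inhibitor of apoptosis (4.51, 5.68, 4.51 and 4.51). Birc3 was above the floor on the warm array alone, and the others kept higher values with heparin than on the cold array. The classical inhibitors stayed within the limit, with levels of 9.69, 11.55, 10.66 and 10.07 for Nfkbia (-0.89) and 6.66, 9.42, 8.48 and 8.02 for Tnfaip3 (-0.94). Of 45 interferon-stimulated genes and interferon regulatory factors, 4 were lower and 0 higher, with a median of -0.27 that became 0.013 with that scaling. Oasl, of the oligoadenylate synthetase family, had levels of 5.15, 8.82, 5.86 and 4.76 (7.77-fold lower), and the transcription factor Irf1 7.59, 11.08, 9.03 and 8.80 (4.13-fold lower). The ubiquitin-like protein Isg15 had 7.20, 9.14, 7.76 and 7.29 (-1.37), and Ifit3, at 4.51, 6.05, 4.51 and 4.51, was above the floor on the warm array alone, at least 2.90-fold. Irf1 remained above its cold value with heparin, whereas Oasl and Isg15 were within 1 of theirs. Mx1, an antiviral GTPase, was within the limit at 7.78, 8.50, 7.61 and 8.06.

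Class I histocompatibility genes of the RT1 locus were lower on the heparin array in part, and in 3 of them this array alone was low. Of 10 such genes above the floor, 4 were lower and 0 higher by 2-fold or more, beside 1.48% lower among all analysed genes. The list's median was -0.46 (-0.18 scaled to the hybridisation controls). RT1-CE10 had levels of 9.41, 9.86, 6.42 and 9.38, RT1-CE12 10.74, 11.24, 8.80 and 10.81 and RT1-CE5 7.88, 7.47, 4.51 and 7.05. For these 3 genes the heparin array was 2-fold or more below each of the other arrays, and those lay within 1 of each other. The differences from the warm array were 10.9-fold for RT1-CE10, 5.41-fold for RT1-CE12 and at least 7.77-fold for RT1-CE5, and another probe set for RT1-CE5 differed by -2.37. RT1-T24-3, at 5.16, 6.16, 4.51 and 6.67, was the fourth, at least 3.13-fold lower. RT1 genes are near-identical copies that vary between animals of an outbred stock such as the Wistar, and probes can be shared among them, so differences between the pooled animals and the treatment cannot be told apart here. The rest of antigen presentation showed no member past the limit among 18, with a median of -0.01 (0.27 scaled to the hybridisation controls); the peptide transporter Tap1 differed by -0.61 and the class II gene RT1-Ba by 0.60. Another probe set for RT1-Ba went far the other way, with 10.46 on the warm and 5.28 on the heparin array (-5.18), so the gene's direction depends on the probe set. None of 14 innate sensors and inflammasome genes passed it either, with a median of -0.08 (0.20 with that scaling).

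**Figure D3:**
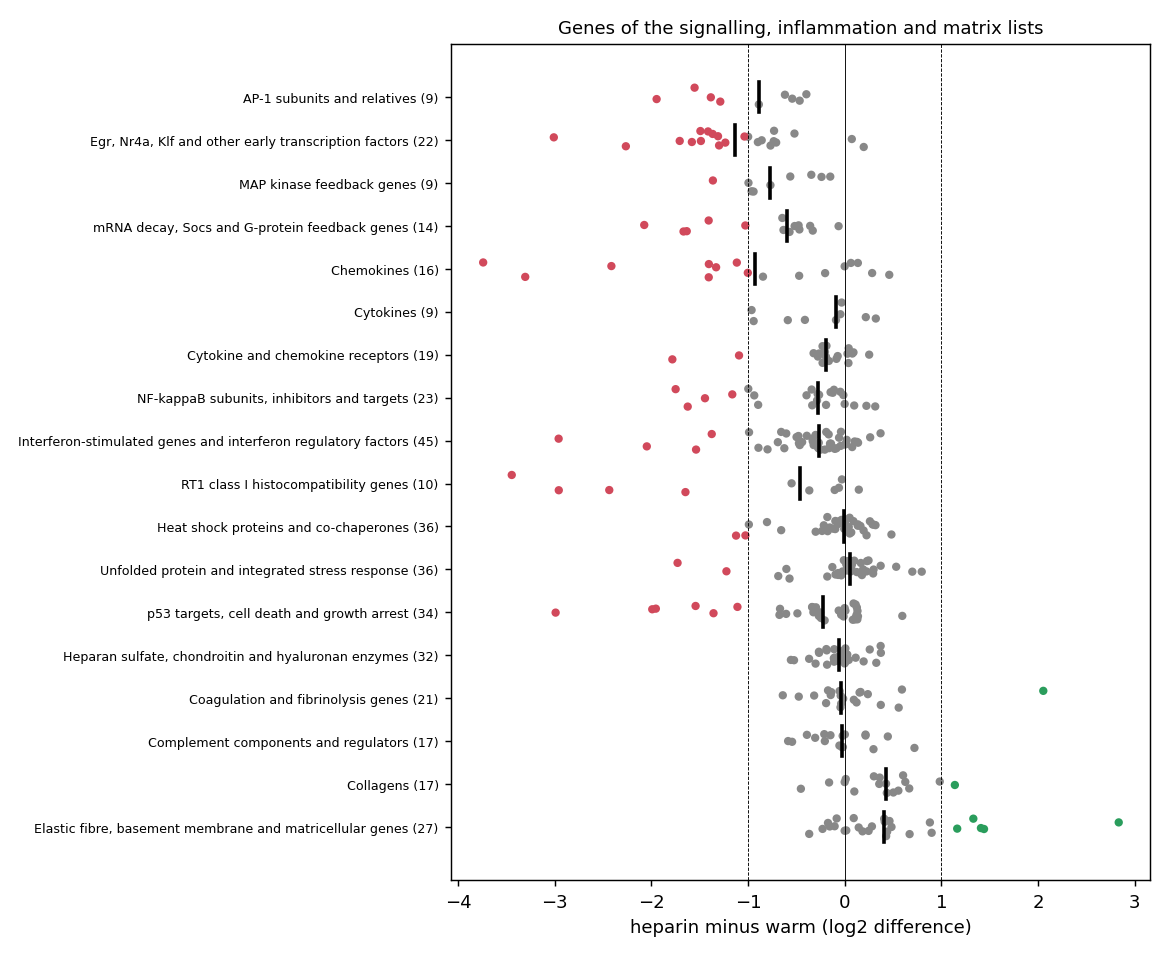
Difference between the heparin and the warm array (log2, horizontal axis) of each gene of the signalling, stress and matrix lists, 1 point a gene and 1 row a list, with the number above the floor in brackets, the list's median as a bar and dashed lines at 2-fold. The medians of the Egr, Nr4a and Klf list (-1.14) and the chemokine list (-0.92) lie to the left, and those of the collagens (0.43) to the right.

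In the growth arrest and stress lists a minority of genes was lower by 2-fold or more, beside 1.48% of all analysed genes. Of 34 p53 targets, cell death and growth arrest genes, 6 were lower and 0 higher by 2-fold or more, and the list's median was -0.23 (0.06 scaled to the hybridisation controls). Cdkn1a, the cell cycle inhibitor p21, had levels of 6.94, 8.82, 6.86 and 6.85 (3.87-fold lower), so that its value with heparin was close to that on the cold array. Gadd45b, a stress sensor upstream of p38, had 5.23, 11.76, 9.77 and 8.99, its relative Gadd45g 8.70, 11.40, 10.04 and 9.80, and the kinase Plk2 5.75, 9.46, 7.92 and 7.10, with differences of -1.99, -1.36 and -1.54. Phlda1, a regulator of cell death, differed by -1.11. Dapk2, a death-associated protein kinase, had 9.76, 8.82, 5.83 and 8.16 and was 7.94-fold lower with heparin than without. Unlike the others it was high on the cold array, and heparin was the only array with a low value.

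Of 36 heat shock genes 2 were lower and 0 higher, with a median of -0.01 (0.27 scaled to the hybridisation controls). These were the inducible HSP70 gene Hspa1a (9.87, 14.11, 12.99 and 12.68, -1.12) and the small heat shock protein Hspb1 (9.06, 11.59, 10.56 and 10.18, -1.03). Dnajb1, a partner of HSP70, had 11.36, 12.78, 11.79 and 11.32 and was just within the limit, with another probe set at -1.29. Among 36 genes of the unfolded protein and integrated stress response, 23 differences were positive and 13 negative, against 49.9% positive over all analysed genes. Of the 36, 2 were lower by 2-fold or more. The median of 0.06 became -0.02 when scaled to poly-A controls. Ppp1r15a, which restores translation after stress, had 5.70, 10.30, 8.57 and 7.68 (-1.73), and Ddit3, the factor CHOP, 9.09, 11.06, 9.84 and 9.32 (-1.22). Within the limit were Manf, the list's largest positive difference, and Hspa5, both of the endoplasmic reticulum. Manf, a secreted stress-induced factor, had 11.42, 10.56, 11.35 and 10.73 (0.80) and the chaperone Hspa5, BiP, 13.95, 13.93, 14.10 and 13.70 (0.17).

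Beside the counts of this paragraph, 1.48% of all analysed genes were lower by 2-fold or more. Of 36 hypoxia and glycolysis genes, 3 were lower and 0 higher, with a median of -0.13 (0.15 scaled to the hybridisation controls), led by Pfkfb3, a regulator of glycolysis, with levels of 8.22, 10.42, 8.97 and 8.95 (-1.45). The third was Stc1, given below with the collecting duct. The vasodilator peptide Adm had 6.19, 8.92, 7.84 and 7.47 (-1.07), while the angiogenic factor Vegfa had 12.10, 12.43, 12.12 and 12.13 and lay within the limit. Of 45 glutathione, NRF2 and metal defence genes, only the glutathione peroxidase Gpx2 passed it, at 5.09, 6.71, 5.51 and 4.81, and the median was -0.03 (0.25 with that scaling). Hmox1, the heme-degrading enzyme, had 4.51, 5.45, 4.51 and 4.51 and was at least 1.91-fold lower. Per1, a clock gene that also responds to glucocorticoids and cyclic AMP, had 4.54, 6.74, 4.63 and 4.55, a 4.33-fold lower value with heparin, next to the floor on all arrays but the warm one. Of 18 clock genes, Nfil3 (7.12, 8.26, 7.12 and 5.50) was the other member past the limit, and the median was 0.00. Of 14 glucocorticoid and mineralocorticoid targets, Per1 and Pdk4 were lower, with a median of -0.24 (0.04 with that scaling).

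The lists of heparan sulfate enzymes, heparin-binding growth factors, coagulation genes and complement genes differed little as groups, unlike the chemokines given above. Over all analysed genes 1.86% passed the limit. None of 32 enzymes that make or break heparan sulfate, chondroitin and hyaluronan passed the limit, with a median of -0.05 (0.23 scaled to the hybridisation controls). The polymerases Ext1 (9.40, 9.63, 9.63 and 9.51) and Ext2 (9.57, 9.50, 9.43 and 9.41) had almost the same level on the warm and heparin arrays. The sulfotransferase Ndst1 (6.28, 6.31, 6.01 and 6.43) was lower with heparin but within the limit, and the heparanase gene Hpse was below the floor. None of 29 heparin-binding growth factors and their receptors passed it, with a median of 0.05 (-0.03 when scaled to poly-A controls) and a range from -0.68 (Igfbp4) to 0.68 (Igfbp3), both binding proteins of insulin-like growth factors, though another probe set for Igfbp3 differed by 1.09. This list leaves out Hbegf and Areg, which passed the limit and are given below with the EGF receptor family. Of 21 coagulation and fibrinolysis genes 1 was higher and 0 lower, with a median of -0.04 (0.24 scaled to the hybridisation controls). Antithrombin itself, Serpinc1, had 11.57, 11.34, 11.32 and 11.27, tissue factor, F3, 10.75, 10.27, 10.51 and 10.29, the pathway inhibitor Tfpi 9.52, 9.47, 9.43 and 9.50, and thrombomodulin, Thbd, 8.45, 8.92, 8.88 and 8.73. For these 4 genes the warm and heparin values lay within 0.25 of each other. The higher gene was Serpine2, protease nexin-1, a thrombin inhibitor that heparin accelerates, with levels of 7.65, 4.51, 6.57 and 7.52. The warm array was the only one at the floor for Serpine2, at least 4.15-fold below heparin. None of 17 complement genes passed the limit, with a median of -0.03 (0.25 with that scaling), and the largest difference was that of the protease C1s (10.89, 9.22, 9.94 and 10.46, 0.72).

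Of 20 proteoglycan core proteins, 2 were higher and 1 lower. Vcan, versican, a large chondroitin sulfate proteoglycan of provisional matrix, had levels of 7.16, 7.08, 5.66 and 5.96 (-1.43), and another probe set for it differed by -0.46. The small leucine-rich proteoglycans Aspn and Ogn had 7.26, 6.00, 7.51 and 7.26 and 9.62, 8.61, 9.68 and 9.49, higher with heparin by 1.51 and 1.07. For Ogn, 1 further probe set went the other way. The heparan sulfate carriers Sdc1 (6.57, 6.44, 6.49 and 6.68) and Sdc4 (13.65, 13.91, 13.53 and 13.65) lay within the limit.

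Ligands of the EGF receptor, several of which bind heparan sulfate, differed in opposite directions. Areg, amphiregulin, had levels of 5.13, 5.22, 6.88 and 6.42 and was 3.15-fold higher with heparin. The cold and warm arrays were alike and close to the floor, where the size of a fold is uncertain. Hbegf, heparin-binding EGF-like growth factor, had 4.80, 7.36, 5.57 and 5.06 and was 3.47-fold lower. The receptor Egfr had 7.85, 6.40, 5.30 and 5.96 (-1.10), but another probe set for it differed by 0.13. Over 12 genes of the family, ligands and sheddases, 1 was higher and 2 lower.

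Ccn1, a secreted matricellular protein that binds integrins and heparan sulfate and is switched on by SRF and YAP, had the largest lower difference with both arrays above the floor. Its levels were 6.87, 10.99, 7.06 and 9.42, so that heparin was 15.2-fold below warm and close to cold, and PPS lay between. The other 31 members of the TGF-beta, BMP and Ccn list included 1 more lower gene, the stress-induced cytokine Gdf15 (4.51, 5.99, 4.51 and 4.51), and the list's median was -0.04 (0.24 scaled to the hybridisation controls). Of 30 YAP, SRF and actin-linked targets 2 were lower, Ccn1 and the SRF target Arc (-1.35), with a median of -0.10 (0.18 with that scaling).

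Genes of the interstitial matrix were mostly higher on the heparin than on the warm array, and for the members past the limit, Fndc1 apart, the warm array was the lowest. Over all analysed genes, 49.9% of differences were positive and 0.383% of genes were higher by 2-fold or more. Of 17 collagens above the floor, 14 differences were positive, 1 passed the limit and the median was 0.43. Of 27 elastic fibre, basement membrane and matricellular genes, 20 were positive, 5 passed the limit with 0 lower, and the median was 0.41. Smoc2, a secreted calcium-binding matrix protein, had levels of 8.13, 5.17, 8.0 and 8.99 and was 7.13-fold higher with heparin. Its warm value lay close to the floor, where the size of a fold is uncertain. Dpt, dermatopontin, which binds decorin and collagen fibrils, had 11.32, 9.03, 10.44 and 11.26 (1.41), and a second probe set for it differed by 1.32. The elastic fibre proteins Fbln5 (9.38, 6.20, 7.54 and 8.24) and Loxl1 (8.75, 6.38, 7.55 and 8.42) and the microfibrillar collagen Col6a3 (9.38, 7.20, 8.34 and 9.02) were higher by 1.33, 1.16 and 1.14. In these 5 genes the heparin value lay between the warm and the cold one, and the PPS value was above the heparin value. Cpne7, a calcium-dependent membrane-binding protein outside the lists, had the same order at 9.33, 5.65, 7.65 and 8.15 (4.01-fold higher). Fndc1, a fibronectin-domain protein, was the fifth gene of the elastic fibre list past the limit, at 4.51, 4.51, 5.96 and 4.51, with heparin as the highest array.

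Markers of the cells that make this matrix mostly differed in the same direction. Their list itself includes matrix genes, the collagens Col1a1, Col1a2 and Col3a1 and the proteoglycan Dcn, so part of this likeness is built in. Of 14 smooth muscle, pericyte and fibroblast markers above the floor, of 24 on the array, 13 differences were positive, against 49.9% over all analysed genes. Of these markers 0 passed the limit, and the median was 0.41. Their summed level was 13.39 (cold), 12.33 (warm), 12.57 (heparin) and 13.04 (PPS) (log2), so that cold was highest and warm lowest. Cygb, a globin of fibroblasts and pericytes, had levels of 9.09, 6.38, 7.37 and 8.25 (0.99), and the smooth muscle actin Acta2 8.20, 8.13, 7.92 and 8.12 (-0.21). The part of these cells in the matrix values was not tested. Of 25 matrix proteases and inhibitors, 2 were higher, Mmp9 (gelatinase B, 4.51, 4.86, 6.08 and 5.21) and Adamts9 (5.68, 5.08, 6.08 and 5.69), and 1 lower, the early-response protease Adamts1 (9.63, 10.67, 9.49 and 9.07). Both higher proteases had low levels on the warm array, close to the floor.

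**Figure D4:**
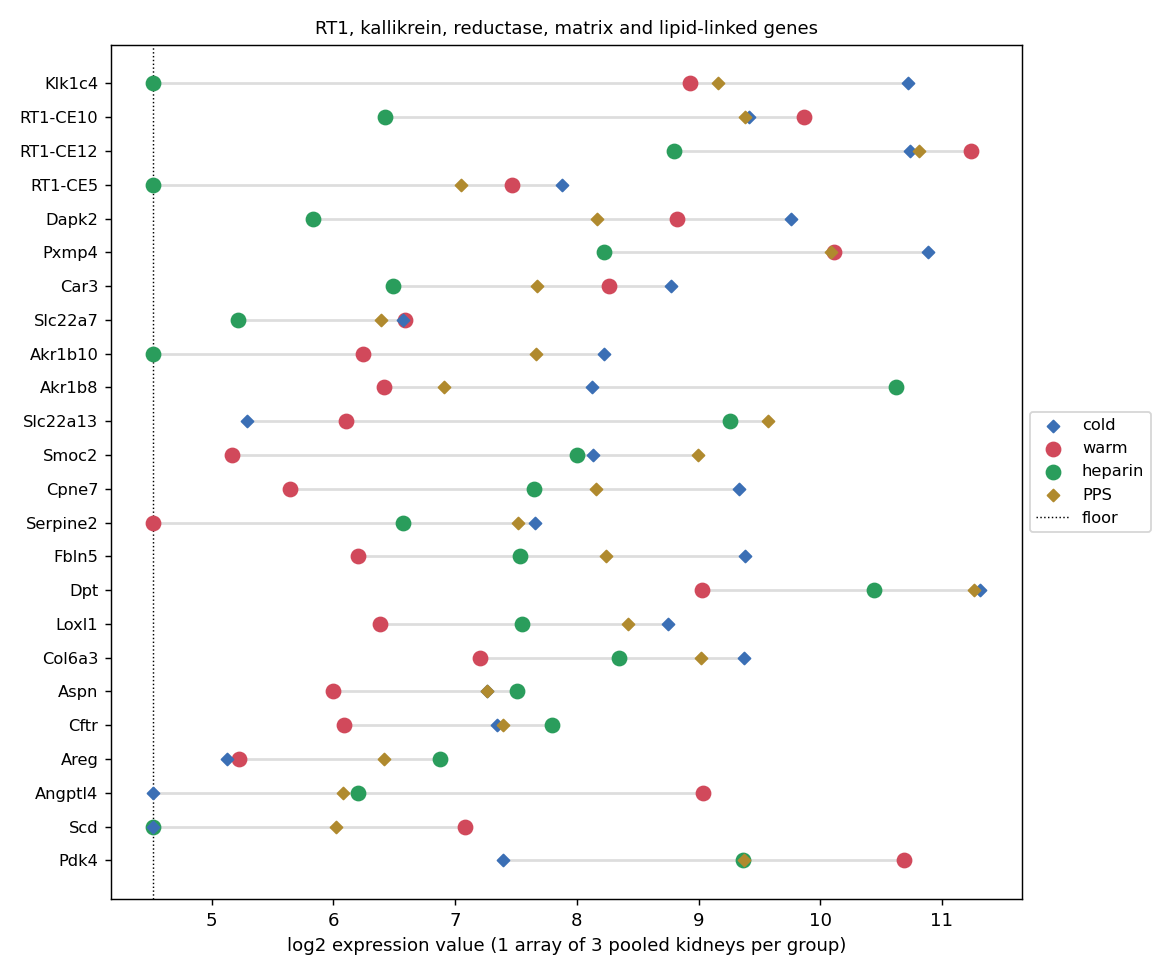
Log2 levels of RT1, kallikrein, reductase, matrix and lipid-linked genes on the cold, warm, heparin and PPS arrays (1 pool of 3 kidneys each), 1 row a gene, with the floor as a dotted line. For Smoc2, Cpne7 and Fbln5 the warm point is lowest, and for Klk1c4, RT1-CE10 and Dapk2 the heparin point is.

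The largest differences in both directions belonged to single genes of large families. Akr1b8, an aldo-keto reductase that reduces aldehydes, had levels of 8.13, 6.41, 10.62 and 6.91, and the heparin array stood 18.5-fold above the warm array and above the other two. Its relative Akr1b10 had 8.23, 6.25, 4.51 and 7.67 and was the reverse, at least 3.32-fold lower, although another probe set for it differed by 0.55. Akr1b1, aldose reductase, which makes sorbitol in the inner medulla, had 11.56, 11.52, 10.23 and 10.23 (-1.30). Over 11 aldo-keto reductases 1 was higher and 2 were lower, and near-identical copies in this family can share probes. Klk1c4, a kallikrein-related protease, had 10.72, 8.93, 4.51 and 9.16: it was well expressed on 3 arrays and at the floor with heparin, at least 21.3-fold lower than on the warm array. Near-identical copies in this family too can share probes. The kallikrein Klk1, a close homologue, had 12.96, 13.22, 12.31 and 12.94 (-0.90). The remaining 11 genes of the kallikrein, kinin, renin-angiotensin, natriuretic and endothelin list were within the limit.

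A pair of organic anion transporters of the proximal tubule differed in opposite directions. Slc22a13, which carries urate and nicotinate, had levels of 5.29, 6.10, 9.26 and 9.57: it was low on the cold and warm arrays and high on both supplemented ones, 8.89-fold higher with heparin. Slc22a7, the transporter OAT2, had 6.57, 6.59, 5.22 and 6.39 (-1.37), lowest with heparin. Slco4a1, which carries thyroid hormone, had 8.20, 9.46, 7.97 and 7.23 (-1.48). Over 24 Slc22 and Slco transporters the median was 0.14, with 18 positive differences, against 49.9% positive over all analysed genes.

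Genes of fatty acid handling that are induced through PPARs or fasting were lower in part. Of 47 genes in that list, 5 were lower and 0 higher by 2-fold or more, beside 1.48% lower among all analysed genes. The list's median was -0.14 (0.14 scaled to the hybridisation controls). Angptl4, which inhibits lipoprotein lipase, an enzyme that heparin releases from heparan sulfate, had levels of 4.51, 9.04, 6.20 and 6.08 and was 7.13-fold lower with heparin. The lipase gene itself, Lpl, had 12.33, 12.47, 11.93 and 11.92 and lay within the limit. Scd, stearoyl-CoA desaturase, had 4.51, 7.08, 4.51 and 6.02, at least 5.94-fold lower, and Pdk4, which shuts off pyruvate dehydrogenase in fasting, 7.39, 10.69, 9.36 and 9.38 (-1.32). For Angptl4 and Pdk4 the supplemented arrays were nearly equal and both lay between cold and warm. The other 2 lower members were the carrier protein Fabp4, given below, and the mitochondrial uncoupling protein Ucp2 (7.55, 8.07, 7.07 and 8.09, -1.004). Outside the list, Apoc2, the lipase's cofactor, had 4.68, 8.03, 5.68 and 5.22 and was 5.10-fold lower. Pxmp4, a peroxisomal membrane protein also outside it, had 10.88, 10.11, 8.23 and 10.09 (3.69-fold lower), with heparin as the only low array, and a second probe set differed by -1.69. Of the 16 prostaglandin and eicosanoid genes, Ptgs1, cyclooxygenase-1, had 8.31, 8.97, 7.93 and 7.71 (-1.04) and passed the limit, while the inducible Ptgs2 had 6.86, 9.43, 8.72 and 8.26 and did not.

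Fat cell markers are given beside these lipid genes. Of 11 on the array, 3 were above the floor, with a summed level of 10.54 (cold), 10.73 (warm), 9.99 (heparin) and 10.46 (PPS). Car3 (8.77, 8.26, 6.49 and 7.67) and Fabp4 (9.07, 9.70, 8.42 and 9.37) were lower with heparin by 3.42-fold and 2.42-fold, and Cidec, a lipid droplet protein, was not (9.0, 9.13, 9.20 and 9.10, 0.07). The defining markers Adipoq, Plin1 and Lep were below the floor on all 4 arrays.

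Markers of nephron segments and other cells stayed within the limit for most members. Over all analysed genes 1.86% were past it, 1.48% lower and 0.383% higher. Of 36 proximal tubule markers none passed it, with a median of 0.08. Of 19 collecting duct principal cell markers, 4 were lower and 0 higher, 17 differences were negative and the median was -0.52 (-0.23 scaled to the hybridisation controls), the lowest of the segment lists. The 4 were Elf3, an epithelial transcription factor (8.02, 10.07, 8.68 and 8.43), the water channel Aqp4 (9.30, 10.92, 9.72 and 9.64), the hormone stanniocalcin, Stc1 (8.96, 9.50, 8.32 and 8.63), and the sodium channel subunit Scnn1a (8.55, 9.36, 8.29 and 8.90). Aqp2, the water channel that defines these cells, was listed above and differed by -0.07, and the list's summed level was 15.75 (cold), 15.97 (warm), 15.77 (heparin) and 15.63 (PPS). The 17 intercalated cell genes had a median of -0.22 (0.06 scaled to the hybridisation controls) with 1 member past the limit, the chloride channel Cftr, higher with heparin at 7.35, 6.09, 7.80 and 7.39. None of 21 thick ascending limb and distal tubule markers passed it (median -0.14, or 0.14 with that scaling), and none of 16 podocyte markers (-0.17, or 0.11). Of 18 claudins and tight junction genes, Cldn4, of the distal nephron, was lower, at 8.06, 10.24, 8.95 and 8.71. Of 11 thin limb and inner medulla markers, Cldn4 and Akr1b1 were lower.

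**Figure D5:**
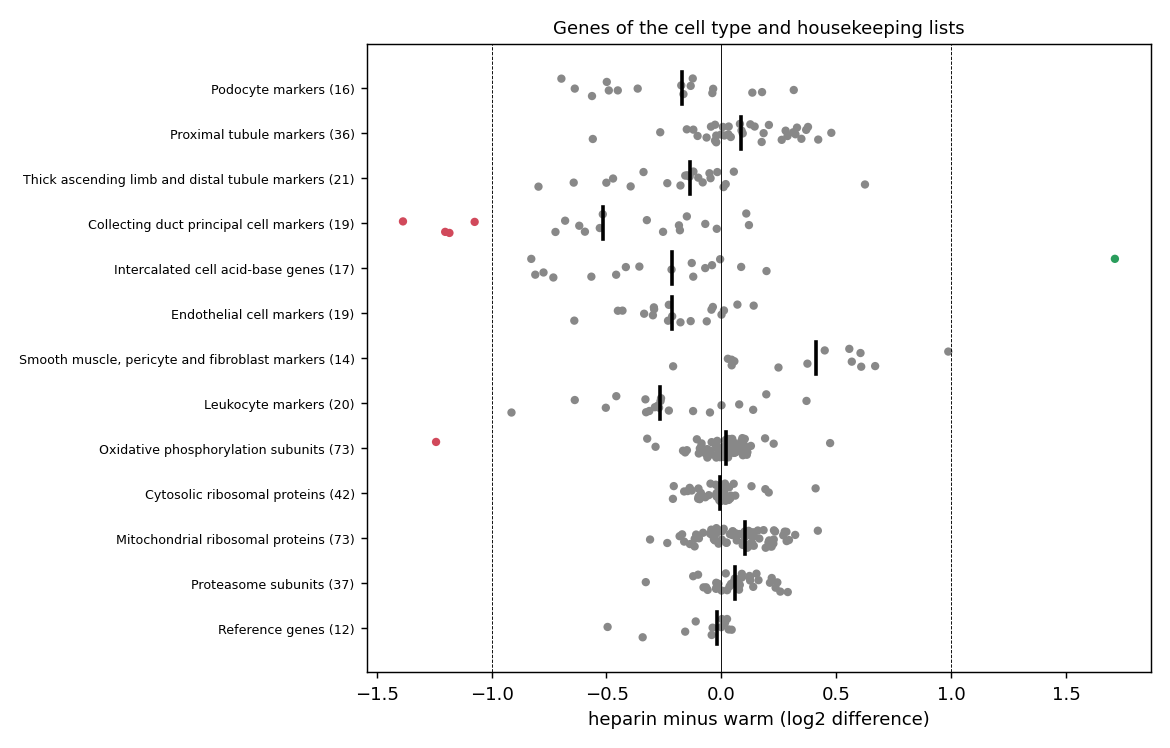
Difference between the heparin and the warm array (log2, horizontal axis) of each gene of the cell type and housekeeping lists, 1 point a gene and 1 row a list, with the number above the floor in brackets, the list's median as a bar and dashed lines at 2-fold. Of the collecting duct markers 4 lie below the lower limit, and the smooth muscle, pericyte and fibroblast markers have a median of 0.41.

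None of 19 endothelial cell markers passed the limit, with a median of -0.21 (0.07 scaled to the hybridisation controls), and the largest difference was that of von Willebrand factor, Vwf (9.42, 8.47, 7.83 and 8.47). Of red blood cell markers, 2 of 7 were above the floor, and Hbb, a haemoglobin chain, had 9.85, 8.71, 8.20 and 9.22. Of 24 tubular injury and repair markers, 1 was higher (Areg) and 2 lower (Hbegf and Tnfrsf12a, both given above), with a median of -0.32 (-0.035 scaled to the hybridisation controls). The injury markers Havcr1 and Lcn2, KIM-1 and NGAL, were below the floor on all 4 arrays.

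Housekeeping groups hardly differed between the arrays. The median was -0.02 over 12 reference genes, -0.01 over 42 cytosolic ribosomal proteins, 0.02 over 73 oxidative phosphorylation subunits and 0.06 over 37 proteasome subunits. Of these 4 lists 1 gene passed the limit, Cox8b, the muscle form of a cytochrome oxidase subunit (4.51, 5.75, 4.51 and 4.51, at least 2.36-fold lower). The 73 mitochondrial ribosomal proteins had 52 positive differences, against 49.9% positive over all analysed genes, and a median of 0.10. Scaled to the hybridisation controls, these 5 medians lay between 0.26 and 0.38.

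The levels on the other arrays sort the genes past the limit by which array stood apart. Since all differences share these arrays, this is a description of the order of levels. Of the 139 lower genes, the warm array was 2-fold or more from each of the other 3 arrays in 93, among them 6 of the 8 lower chemokines, the 12 lower early transcription factors and the 4 lower AP-1 genes. In 10 the heparin array was: Aebp1, Akr1b10, Car3, Dapk2, Klk1c4, Pxmp4, RT1-CE10, RT1-CE12, RT1-CE5 and Slc22a7. Neither held for the other 36. Of the 36 higher genes, the warm array stood apart in 12, among them Smoc2, Serpine2, Cpne7, Dpt, Fbln5, Loxl1, Col6a3, Aspn and Cftr. The heparin array stood apart in 4 (Akr1b8, Ccdc77, Fndc1 and Timm8a2), and neither in 20. Further probe sets above the floor existed for 15 of the lower genes and 7 of the higher ones. Of 17 such probe sets of lower genes 15 had the same direction, and of 10 of higher genes 7 did. Past the limit in either direction were 9 of the 17 and 2 of the 10.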

How the data were processed

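Messenger RNA was measured in 4 groups of kidneys on Affymetrix rat arrays, 1 array a group, from 6 ug of total RNA per the labels' protocols. The deposited file gives 1 log2 value per probe set and array, made by the authors with GCRMA, per the submitters' processing notes, which corrects background, normalises between arrays and summarises probes. No header states the scale, which was read from the values (2.11 to 16.4). GCRMA gives arrays nearly equal distributions, so a difference in total messenger RNA would not be seen. The number of arrays limits the precision.

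Of 31099 probe sets, 57 controls were left out and 20826 had 1 gene symbol in the platform annotation; 436 with several and 9780 unnamed ones were not used for genes. The gene identifiers of 20758 were found in the RefSeq annotation of GRCr8, whose symbols were then used and which also gave the promoter sequences. Of 14217 genes, 4525 had several probe sets, and the one with the highest mean was taken. With 1 array a group no p-value was computed, and 2-fold was the size limit. The gene lists, and the genes named, were chosen with earlier results of these data known. Named were the 15 largest measured differences and 6 largest lower bounds in each direction, list members past the limit, the top 2 of other lists, and a set of genes of coagulation, heparan sulfate and inflammation whatever their values. Other genes were added after their values were seen. Alternatives varied the floor, the choice of probe set, the scaling and the limit. Computation used Python 3.11.15, numpy 2.4.6, pandas 2.3.3 and statsmodels 0.14.6, and the script was tested on simulated data.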

Additional observations from a re-analysis of the deposited data

Results flagged for a closer look

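For 6 genes past the limit the heparin and PPS arrays lay on opposite sides of the warm array, and in 2 of them the PPS array was also at least 0.5 (log2) away from it. Akr1b10, an aldo-keto reductase, had log2 levels of 8.23, 6.25, 4.51 and 7.67 on the cold, warm, heparin and PPS arrays (4.51 is the floor), so that heparin minus warm was -1.73 and PPS minus warm 1.42. Another probe set for Akr1b10 had a heparin minus warm difference of 0.55, so the gene's direction with heparin depends on the probe set. Near-identical copies in this family can share probes. RT1-T24-3, a class I histocompatibility gene, had 5.16, 6.16, 4.51 and 6.67, with -1.65 for heparin and 0.51 for PPS. Both genes were at the floor with heparin, so the heparin differences are lower bounds in size. Each group has 1 array and both differences share the warm array, so the difference between them was not tested. The other 4 were Aebp1, Gadl1, Klk1c4 and Ucp2. Among the probe sets without a gene name, which the comparisons above leave out, 81 of 3203 above the floor (2.53%) differed by 2-fold or more between the heparin and warm arrays, 34 higher and 47 lower.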

How the results depend on the processing

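The counts of 36 higher and 139 lower genes depended on the limit, the scaling, the floor and the choice of probe sets. With a limit of 1.5-fold they were 159 and 367, and with 3-fold 9 and 41. Scaled to the hybridisation controls they were 87 and 84, and over all probe sets other than controls 85 and 223. With the floor at the 60th percentile 14 genes were higher, and with the mean of all probe sets of a gene 21 were. A floor at the 40th percentile, no floor, median centring, a loess correction, quantile normalisation and scaling to the poly-A controls kept both counts within 1.5 times. Scaled to the hybridisation controls, 3 list medians of 0.25 or more in size turned sign: NF-kappaB genes had 0.00169, interferon genes 0.013 and leukocyte markers 0.013. Of the 185 genes named by rule, 119 were past the limit. None of these turned sign under the settings of floor, probe sets and scaling. However, 31 fell within the limit with the mean of all probe sets. With the floor at the 60th percentile 23 did, and 18 had no value. Scaled to the hybridisation controls, 26 fell within the limit. Of the 66 within it 6 turned sign with that scaling (Ext1, Nefm, Rpl19, Serpinc1, Tfpi and Thbd), Ext1 also with quantile normalisation, Sdc1 scaled to the poly-A controls, and RT1-Ba, from 0.60 to -1.15, with the mean of its probe sets. With the hybridisation scaling 7 moved past the limit. No paired analysis was possible because each group has 1 array and the labels give no replicate numbers. With 1 array a group no replicate could be left out. Low signals limit the folds: 21 of the 139 lower and 5 of the 36 higher genes had 1 array at the floor.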

Other observations

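Several further groups had few or no members past the limit, which 1.86% of all analysed genes passed. Of 37 drug-metabolising enzymes, Ugt2b35, a glucuronosyltransferase, was higher with heparin (13.58, 12.73, 13.76 and 13.87 on the cold, warm, heparin and PPS arrays) and Cyp1a1, the classical target of the aryl hydrocarbon receptor, was lower (8.09, 8.63, 7.55 and 8.13). Of 27 genes of cholesterol synthesis and uptake 1 was lower, the sterol exporter Abcg1 (8.49, 9.30, 8.24 and 8.65). Of 21 cell cycle genes 1 was lower, the cyclin Ccnd2 (7.19, 7.59, 6.56 and 7.45). Among 33 mitochondrial carriers Slc25a25, a calcium-dependent exchanger of ATP and phosphate, was lower, at 8.83, 9.88, 8.25 and 8.63. None of 23 amino acid carriers or 26 iron, zinc and heme genes passed the limit. Of the markers of other tissues, 0 of 9 adrenal, 1 of 7 platelet, 1 of 9 urothelium and 3 of 11 nerve and glia markers were above the floor, and none of these passed the limit.

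Of the genes past the limit, 20 of the 36 higher and 50 of the 139 lower ones belonged to no list. Lower ones among them were Ly6al (5.93, 7.19, 4.74 and 4.91), Hebp1, a heme-binding protein (7.09, 8.49, 6.40 and 6.87), Tspan1, a tetraspanin (8.20, 9.44, 7.66 and 8.55), and Noct, nocturnin (7.60, 8.13, 6.61 and 6.67). Higher ones included Kif5c, a kinesin heavy chain (6.02, 5.30, 6.95 and 5.42), Dpep1, a renal dipeptidase (7.40, 4.51, 5.88 and 6.09), and Ftcd, an enzyme of histidine breakdown (8.62, 7.49, 8.79 and 9.08). For Dpep1 the warm array was the low one, as for the matrix genes, and a second probe set differed by 0.45. These genes were chosen after their values were seen.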
